A study of Mus musculus with 56 samples.

Results

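The core circadian clock genes Arntl, Clock, Per1, Per2, Per3, Cry1, Cry2, Nr1d1, Nr1d2 and Dbp were followed in mouse liver by RNA sequencing (RNA-seq). These 10 genes were chosen by name, out of 23813 genes in the RNA table, and the first listed transcript stood for each gene. All 10 were expressed above the filter on low values in each comparison. The study compared hypothyroid and hyperthyroid wild-type (WT) mice with mice that carry a mutant of the nuclear corepressor NCOR1, and asked how thyroid hormone controls liver chromatin and gene expression.

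There were 3 groups of 4 male mice, and each library came from liver. Hypothyroidism was induced in WT mice with chow poor in iodine to which propylthiouracil (PTU) was added, a drug that stops the thyroid from making hormone. Hyperthyroid WT mice received the same diet and injections of triiodothyronine (T3) over its last days, so that PTU is common to all 3 groups. The study's methods name vehicle injections for the mice not given T3. L-NCOR1ΔID mice were hypothyroid by the same diet and express, in the liver, an NCOR1 protein without the domains that bind the thyroid hormone receptor (TR), and their strain was a mix of C57BL/6 and 129S. The study lists ages in months as means over all mice of a group, not per library, and the mean was lower in L-NCOR1ΔID than in both WT groups, so that age and genotype cannot be told apart. The strain background of the WT mice in these libraries and the time of day at which the livers were taken are not given in the sources used here. Mice lived in a light-dark cycle, and whether the groups differed in the time of collection was not tested.

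The clock is a feedback loop of transcription. BMAL1, the product of Arntl, pairs with CLOCK and binds E-boxes (CACGTG and close relatives) to switch on the Per, Cry, Nr1d and Dbp genes. PER and CRY proteins then block BMAL1 and CLOCK, while the REV-ERB proteins, encoded by Nr1d1 and Nr1d2, repress Arntl from sites that they share with the ROR activators. REV-ERBs repress with the help of NCOR1 and the histone deacetylase HDAC3. Dbp encodes an output factor that binds D-boxes (TTATGTAA is 1 form) in genes such as Per3. In liver these levels rise and fall over the day, with Arntl out of phase with Dbp and the Nr1d genes.

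The following sequences are matches to these motifs near the start sites of the genes whose RNA is described. They were read on mm9 within a window from 250 bases before to 50 bases after the start of the GENCODE M1 transcript with the longest coding sequence, except for Arntl, where the site is at position 77 counted from the start. Capitals mark an E-box or its variant CACGTT, a D-box, or TAGGTCA, the core of a REV-ERB and ROR site. Strands are those of the gene.
Per1 E-box (chr11:68912275-68912300, plus strand, position -165): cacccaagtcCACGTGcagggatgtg
Cry1 E-box (chr10:84647844-84647869, minus strand, position -60): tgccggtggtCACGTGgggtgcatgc
Per2 E-box variant (chr1:93355881-93355906, minus strand, position 12): cgcgcgcggtCACGTTttccactatg
Nr1d1 E-box variant on the opposite strand (chr11:98636704-98636729, minus strand, position -72): cacagatctcAACGTGccggctgctg
Per3 D-box (chr4:150418962-150418989, minus strand, position -205): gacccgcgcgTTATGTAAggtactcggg
Per3 second D-box (chr4:150418915-150418942, minus strand, position -158): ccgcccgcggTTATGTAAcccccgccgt
Per2 D-box (chr1:93356009-93356036, minus strand, position -119): catgtgcgtcTTATGTAAagagagcgac
Arntl REV-ERB and ROR core (chr7:120351045-120351071, plus strand, position 77): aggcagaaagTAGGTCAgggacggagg
Dbp TAGGTCA match (chr7:52960259-52960285, plus strand, position -189): tggccaaataTAGGTCAgtgtcccgcc

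Both strands were searched. CACGTG was found in the windows of 2 members and in 7.80% of all 22232 protein-coding windows, and CACGTT in those of 4 members and 4.91% of all. TTATGTAA was found in 2 members (0.94% of all windows) and TAGGTCA in 1 (2.40%), which was Dbp. The windows of Arntl, Clock, Per3, Nr1d2 and Dbp held neither CACGTG nor CACGTT. No member had the TR element tested, a direct repeat of AGGTCA with 4 bases between, in its window, and 0.009% of all windows did. A match gives letters only and does not show that a factor was bound.

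The labels were checked first. Dio1 and Thrsp, known targets of T3, were 6.20 and 2.29 higher on the log2 scale in hyperthyroid WT mice (limma adjusted p = 0.0012 and 8.1e-04). Dio1 varied widely among hypothyroid WT libraries, from 0.719 to 57.7 RPKM, and was 459 to 641 RPKM in hyperthyroid WT libraries. In L-NCOR1ΔID mice it was 0.567 and 0.591 RPKM in replicates 1 and 2, and 20.9 and 12.1 RPKM in replicates 3 and 4. Ncor1 RNA did not pass the test in L-NCOR1ΔID mice (log2 fold change -0.18, SE 0.07, adjusted p = 0.20), and a value per gene does not show the lost exons. The 6 listed hepatocyte markers, led by Alb, summed to 20213 to 28320 RPKM in hyperthyroid WT, 41706 to 53354 RPKM in hypothyroid WT and 33805 to 38148 RPKM in L-NCOR1ΔID libraries. With T3, 3 of the 6 (Alb, Ttr and Cyp2e1) were lower, and Apoa1, Tat and Serpina1a did not pass the test (log2 fold change 0.12, 0.29 and 0.36). The 5 listed macrophage (Kupffer cell) markers summed to 82.9 to 136 RPKM in hyperthyroid WT mice, compared to 29.1 to 39.3 in hypothyroid WT and 29.8 to 77.2 in L-NCOR1ΔID mice, and the part of these shifts in the results was not tested. In whole liver, fewer cells of a type and less RNA per cell cannot be told apart. Depth, read from the steps between low RPKM values, was about 29100000 to 38200000 reads in hypothyroid WT, 21300000 to 26100000 reads in hyperthyroid WT and 38000000 to 42600000 reads in L-NCOR1ΔID libraries. One hyperthyroid library, replicate 2, was the lowest of its group for 6 of the 10 clock genes, and results are therefore also given without it.

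Levels were compared per length of transcript, as reads per kilobase of transcript scaled to the size of the library (RPKM). In hypothyroid WT mice Dbp was highest (mean 65.8 RPKM), followed by Nr1d1 (31.4), and Arntl was lowest (0.671). Nr1d2, Per2 and Per1 lay close together (18.7, 18.4 and 17.2 RPKM), within the spread of their libraries. In hyperthyroid WT mice Nr1d1 (26.3) and Dbp (23.1) overlapped in their ranges, and Arntl was still lowest at 3.00 RPKM. In L-NCOR1ΔID mice the order began again with Dbp (70.7) and Nr1d1 (38.8), whose ranges overlapped.

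**Figure D1:**
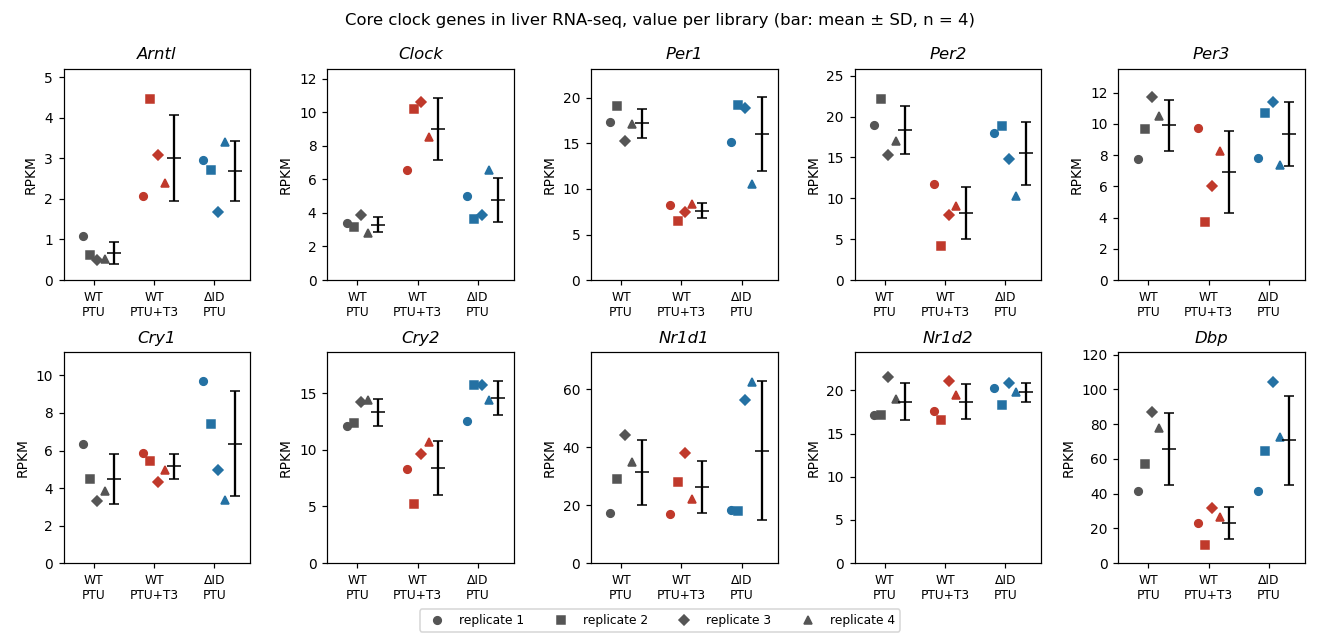
RPKM of each core clock gene (vertical axis, from 0) in the 4 libraries of each group, with WT PTU for hypothyroid WT, WT PTU+T3 for hyperthyroid WT and ΔID PTU for hypothyroid L-NCOR1ΔID mice. Symbols mark replicates and black bars the mean ± SD (n = 4). Arntl was 0.487 to 1.08 RPKM in hypothyroid WT libraries and at least 1.68 RPKM in all others, while Per1 and Dbp were at most 8.31 and 32.0 RPKM in hyperthyroid WT libraries and at least 10.5 and 41.3 RPKM in all others.

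RNA of the positive arm of the clock, Arntl and Clock, was higher in hyperthyroid WT mice, and part of the negative arm and output was lower. The part of the time of collection in this difference was not tested. Arntl and Clock rose about 4.02-fold and 2.65-fold in hyperthyroid compared to hypothyroid WT mice, and Per1, Per2 and Dbp fell by 1.17, 1.23 and 1.56 on the log2 scale. Thus 2 of 10 members were higher and 3 lower at an adjusted p under 0.01 (limma on log2(RPKM + 0.1), Benjamini-Hochberg adjustment over 13941 genes). Among all genes tested 24.5% were higher and 7.71% lower, together 32.2%. All 5 calls also exceeded a log2 fold change of 1 in size, as did 11.8% of all genes. The median log2 fold change was -0.41 over the members and 0.23 over all genes. Libraries were also rescaled to the same median ratio of a gene to its geometric mean across libraries, over genes with reads in all libraries compared. This is called equal gene medians here. The median over all genes then moved to 0.01 and that of the members to -0.65. All genes then split into 1706 higher and 1952 lower in place of 3413 and 1075, and the members into 2 higher and 4 lower, with Cry2 added.

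Arntl was 1.08, 0.606, 0.487 and 0.512 RPKM in the hypothyroid WT libraries (replicates 1 to 4) and 2.06, 4.45, 3.08 and 2.40 RPKM in the hyperthyroid WT libraries. Each hyperthyroid library was above each hypothyroid library, with replicate 2 the highest. The log2 fold change was 2.01 (SE 0.28, adjusted p = 5.2e-04), or 1.80 without hyperthyroid replicate 2 (adjusted p = 0.0011), and 1.79 relative to equal gene medians. With a pseudocount of 1 RPKM, which is above every level but 1 of Arntl in hypothyroid WT mice, it was 1.24. Its second listed transcript gave nearly the same values, and Arntl stayed past the threshold in each of the 17 other fits.

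Clock, which encodes the partner of BMAL1, was 3.38, 3.14, 3.85 and 2.82 RPKM in hypothyroid WT mice and 6.55, 10.2, 10.6 and 8.55 RPKM in hyperthyroid WT mice. The groups did not overlap, as in 46.6% of all genes tested. The log2 fold change was 1.40 (SE 0.16, adjusted p = 1.7e-04), 1.33 without hyperthyroid replicate 2, and 1.17 at equal gene medians.

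Among the Per genes, whose proteins close the loop, Per1 had the narrowest spread. It was 17.4, 19.1, 15.3 and 17.1 RPKM in hypothyroid WT and 8.22, 6.52, 7.46 and 8.31 RPKM in hyperthyroid WT mice. The log2 fold change of Per1 was -1.17 (SE 0.10, adjusted p = 3.9e-05), and it was past the threshold in all 8 fits that left out 1 library.

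Per2 was 19.0, 22.2, 15.3 and 17.0 RPKM in hypothyroid WT and 11.7, 4.12, 7.96 and 9.06 RPKM in hyperthyroid WT mice, so that the groups did not overlap and replicate 2 was far below the other hyperthyroid libraries. The log2 fold change was -1.23 (SE 0.28, adjusted p = 0.0057), and -0.94 without replicate 2 (adjusted p = 0.0023). The call was lost without hypothyroid replicate 1 (adjusted p = 0.016), 2 (0.018) or 4 (0.014) or hyperthyroid replicate 3 (0.014), where the log2 fold change was -1.27 to -1.14.

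Per3 was 7.78, 9.70, 11.7 and 10.5 RPKM in hypothyroid WT and 9.74, 3.72, 6.04 and 8.25 RPKM in hyperthyroid WT mice. The groups overlapped, and Per3 did not pass the test (log2 fold change -0.58, 95% confidence interval -1.19 to 0.03, adjusted p = 0.10). The value moved to -0.32 without hyperthyroid replicate 2.

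The Cry genes encode the other repressors of BMAL1 and CLOCK. Cry1 was 6.36, 4.51, 3.29 and 3.85 RPKM in hypothyroid WT and 5.87, 5.43, 4.30 and 4.99 RPKM in hyperthyroid WT mice, with a log2 fold change of 0.22 (interval -0.21 to 0.65, adjusted p = 0.35) that became -0.01 at equal gene medians. Cry2 was 12.1, 12.4, 14.2 and 14.4 RPKM in hypothyroid WT and 8.27, 5.18, 9.62 and 10.7 RPKM in hyperthyroid WT mice. Although these groups did not overlap, Cry2 missed the threshold (log2 fold change -0.70, SE 0.20, adjusted p = 0.017). It passed at equal gene medians (-0.93, adjusted p = 0.0034), with all 12 libraries in 1 fit (-0.70, adjusted p = 0.0077), and without hyperthyroid replicate 2 (-0.48, adjusted p = 0.0083) or 4 (-0.82, adjusted p = 0.0098).

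The REV-ERB genes did not pass the test. Nr1d1 was 17.4, 29.2, 44.2 and 34.9 RPKM in hypothyroid WT and 16.9, 28.2, 37.9 and 22.1 RPKM in hyperthyroid WT mice, with overlapping groups and a log2 fold change of -0.24 (interval -0.94 to 0.45, adjusted p = 0.53). In GENCODE M1, 8.42% of its exon bases overlap exons of Thra, the gene for TRα, on the opposite strand, and the strand setting of the counting is not given in the sources used here. Thra was 3.45 ± 0.507 RPKM in hypothyroid WT and 3.86 ± 0.238 RPKM in hyperthyroid WT mice (SD, n = 4). Nr1d2 was 17.1, 17.1, 21.6 and 19.0 RPKM in hypothyroid WT and 17.6, 16.6, 21.1 and 19.5 RPKM in hyperthyroid WT mice. Its log2 fold change was 0.00 with an interval of -0.23 to 0.23 (adjusted p = 1), the narrowest of the members in this comparison apart from that of Per1, and -0.24 at equal gene medians (adjusted p = 0.042).

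Dbp was 41.5, 56.8, 87.2 and 77.9 RPKM in hypothyroid WT and 23.3, 10.5, 32.0 and 26.6 RPKM in hyperthyroid WT mice. All hyperthyroid libraries were below the hypothyroid ones, and replicate 2 was again the lowest. The log2 fold change was -1.56 (SE 0.35, adjusted p = 0.0054), and -1.22 without that library (adjusted p = 0.0046). The call was lost without hypothyroid replicate 2 (adjusted p = 0.012), 3 (0.015) or 4 (0.018) or hyperthyroid replicate 1 (0.011). Dbp shares 16.7% of its exon bases with Sphk2 on the opposite strand, and Sphk2 was 16.6 ± 2.49 and 15.5 ± 1.52 RPKM in these groups (log2 fold change -0.09, adjusted p = 0.58). For each of Arntl, Clock, Per1, Per2, Cry2 and Dbp the exact two-sided permutation test gave p = 0.0286, the smallest that 4 against 4 libraries allow. This value is reached whenever the 2 groups do not overlap, as in 46.6% of all genes tested.

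**Figure D2:**
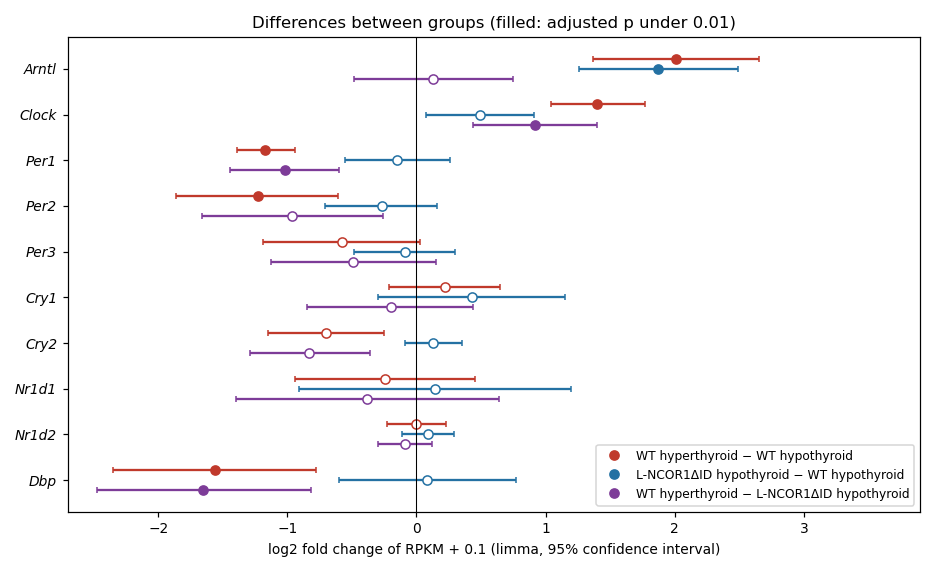
Log2 fold change of RPKM + 0.1 (horizontal axis) with its 95% confidence interval from limma for each clock gene (vertical axis) in 3 comparisons, by colour. Filled points passed an adjusted p of 0.01. Arntl lies near 2 in both comparisons with hypothyroid WT mice, while Per1, Per2 and Dbp lie below -1 for T3 and between -0.27 and 0.08 for L-NCOR1ΔID.

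In hypothyroid L-NCOR1ΔID mice Arntl alone among the clock genes passed the test against hypothyroid WT mice. It was 2.97, 2.72, 1.68 and 3.41 RPKM in the mutant libraries, each above the highest WT library (1.08 RPKM), and rose about 3.67-fold (log2 fold change 1.87, SE 0.27, adjusted p = 0.0073, or 1.13 with a pseudocount of 1 RPKM). This made 1 of 10 members higher and 0 lower by limma, compared to 0.725% and 0.544% of 13790 genes, together 1.27%. These background counts, 100 and 75 genes, were 36 to 110 and 28 to 77 when 1 library was left out. Arntl was also the only member whose groups did not overlap here, compared to 13.1% of all genes. At an unadjusted p under 0.05, 2 members were higher, Arntl and Clock, and 0 were lower, compared to 20.5% of all genes in either direction.

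The size of the Arntl rise held when 1 library was left out (1.75 to 2.10), but the call did not. Adjusted p was 0.029 without hypothyroid WT replicate 2, 0.025 without 3 and 0.027 without 4. It was 0.022, 0.021 and 0.015 without L-NCOR1ΔID replicates 1, 2 and 4. The call stayed without hypothyroid WT replicate 1 (0.0054) and without L-NCOR1ΔID replicate 3 (0.0074). It was also lost without a filter on low values (0.015) and without the variance trend (0.012), at the same fold change.

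Clock was 5.01, 3.63, 3.86 and 6.54 RPKM in L-NCOR1ΔID mice, where replicates 1 and 4 were high and the groups overlapped. Its log2 fold change over hypothyroid WT mice was 0.49 (interval 0.07 to 0.91, adjusted p = 0.18).

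The repressors did not pass in the mutant. Per1 was 15.2, 19.2, 18.9 and 10.5 RPKM (log2 fold change -0.15, interval -0.55 to 0.26) and Per2 was 18.0, 18.8, 14.8 and 10.3 RPKM (-0.27, interval -0.71 to 0.16). Replicate 4 was the lowest for both. Per3 was 7.82, 10.7, 11.4 and 7.40 RPKM (-0.09, interval -0.48 to 0.30).

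Cry1 spread widely in L-NCOR1ΔID mice, from 9.73 RPKM in replicate 1 through 7.40 and 4.96 to 3.38 in replicate 4, a 2.88-fold range (log2 fold change 0.43, interval -0.30 to 1.15). Cry2 was even at 12.5, 15.7, 15.7 and 14.4 RPKM (0.13, interval -0.09 to 0.35).

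Nr1d1 split the mutant libraries. Replicates 1 and 2 had 18.2 and 18.0 RPKM, and replicates 3 and 4 had 56.4 and 62.5 RPKM, a 3.47-fold range and the widest of any member in any group. The log2 fold change against hypothyroid WT mice was 0.14 with an interval of -0.91 to 1.20, and turned to -0.17 without mutant replicate 4 and -0.12 without mutant replicate 3 or hypothyroid WT replicate 1. Nr1d2 held at 20.3, 18.3, 20.9 and 19.8 RPKM, a 1.14-fold range (log2 fold change 0.09, interval -0.11 to 0.29). Dbp was 41.3, 64.8, 104 and 72.8 RPKM (0.08, interval -0.60 to 0.77), so that the group mean of 70.7 RPKM stood beside 65.8 RPKM in hypothyroid WT mice.

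The effects of T3 and of the mutant were measured against the same 4 hypothyroid WT libraries. Their difference was therefore tested by comparing hyperthyroid WT with hypothyroid L-NCOR1ΔID mice directly, which differ in both hormone and genotype. Here 1 of 10 members, Clock, was higher and 2, Per1 and Dbp, were lower in hyperthyroid WT mice, compared to 15.5% and 5.70% of 14017 genes, together 21.2%. The groups did not overlap for Clock, Per1, Cry2 and Dbp, and for 38.3% of all genes. At equal gene medians all genes split into 1051 higher and 1284 lower in place of 2176 and 799, and the members into 0 higher and 3 lower.

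Arntl did not pass this test (3.00 ± 1.06 RPKM in hyperthyroid WT and 2.69 ± 0.732 in L-NCOR1ΔID mice, log2 difference 0.13, interval -0.48 to 0.75, adjusted p = 0.72). The interval allows a difference of up to 0.75 on the log2 scale, so that equal levels are not shown.

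Clock was 8.99 ± 1.86 RPKM in hyperthyroid WT and 4.76 ± 1.33 RPKM in L-NCOR1ΔID mice (log2 difference 0.92, SE 0.21, adjusted p = 0.0092). Just past the threshold, this call held in 2 of 8 fits that left out 1 library, those without hyperthyroid replicate 1 (0.0065) or L-NCOR1ΔID replicate 4 (0.0034). In the others adjusted p was 0.018 (without L-NCOR1ΔID replicate 1) to 0.030 (without hyperthyroid replicate 3), and it was 0.028 at equal gene medians.

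Per1 was 7.63 ± 0.832 and 16 ± 4.06 RPKM (log2 difference -1.02, SE 0.19, adjusted p = 0.0031). It lost the call without hyperthyroid replicate 3 or L-NCOR1ΔID replicate 3 (adjusted p = 0.011 for each).

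Dbp was 23.1 ± 9.11 and 70.7 ± 25.8 RPKM (log2 difference -1.65, SE 0.37, adjusted p = 0.0077). This call held without hyperthyroid replicate 2 (-1.31, adjusted p = 0.0096) and without L-NCOR1ΔID replicate 1 (0.0064). It was lost without any other library, with an adjusted p of 0.010 (without hyperthyroid replicate 3) to 0.023 (without L-NCOR1ΔID replicate 3). Sphk2, which overlaps Dbp, was 20.1 ± 2.98 RPKM in L-NCOR1ΔID mice (log2 difference -0.36, adjusted p = 0.042).

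Per2 (-0.96, interval -1.66 to -0.26, adjusted p = 0.036) and Cry2 (-0.83, interval -1.29 to -0.36, adjusted p = 0.012) missed the threshold. The remaining members, Per3, Cry1, Nr1d1 and Nr1d2, had adjusted p values of 0.20, 0.60, 0.53 and 0.47.

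Arntl and Dbp can be set side by side in single livers. Dbp exceeded Arntl 38.4 to 179 times in hypothyroid WT libraries, 13.9 to 61.7 times in L-NCOR1ΔID libraries and 2.36 to 11.3 times in hyperthyroid WT libraries. Hyperthyroid replicate 2 gave the lowest ratio and hypothyroid WT replicate 3 the highest.

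**Figure D3:**
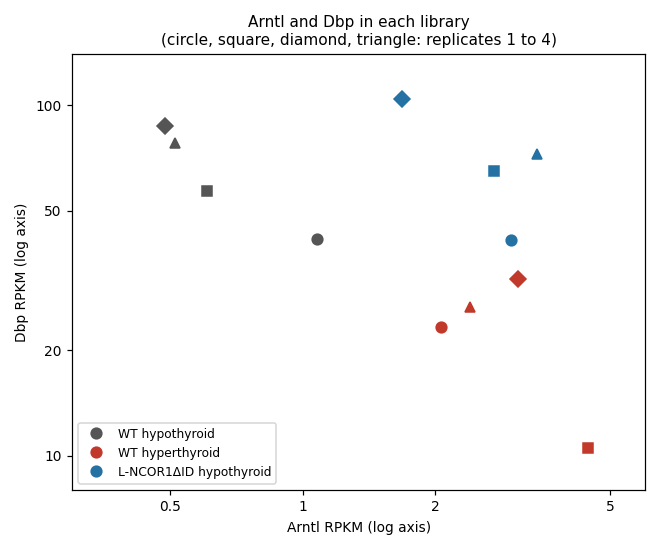
Arntl (horizontal) against Dbp (vertical) in RPKM on log axes, 1 symbol per library, coloured by group. Hypothyroid WT libraries lie at low Arntl and high Dbp, hyperthyroid WT libraries at high Arntl and low Dbp, and L-NCOR1ΔID libraries at high Arntl (1.68 to 3.41 RPKM) and high Dbp (41.3 to 104 RPKM).

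Libraries also varied together within groups. After subtraction of each group's mean of log2(RPKM + 0.1), Per3 and Dbp ran against Arntl over the 12 libraries (Pearson r = -0.89 and -0.76, Spearman rho = -0.91 and -0.71). Without the 2 libraries farthest from the median of Arntl, hypothyroid replicate 1 and hyperthyroid replicate 2, r was -0.85 and -0.51. Clock varied with Arntl (r = 0.57). With Dbp, Cry2 (r = 0.86), Per3 (0.72), Nr1d2 (0.72) and Nr1d1 (0.55) varied in the same direction and Cry1 in the other (-0.64). Without hyperthyroid replicate 2, r with Dbp was 0.78 for Cry2, 0.53 for Per3 and 0.64 for Nr1d2. It was then 0.76 for Nr1d1 and -0.76 for Cry1. Of 10663 genes with a mean of at least 1 RPKM, those most like Arntl by this measure were Tab3 (0.89), Clpx (0.88), Pdk4 (0.88), Palmd (0.87) and Hacl1 (0.86). Those most like Dbp were Usf2 (0.97), Snord91a (0.93), Rcor3 (0.93), Ppargc1b (0.93) and Ndst2 (0.92). These are descriptions over 12 libraries, which differ in depth within a group.

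Other transcription factors of the clock and its output were listed as 11 genes, of which 9 were tested for T3. In hyperthyroid WT mice 3 were lower and 0 higher (median log2 fold change -0.31), compared to 7.71% and 24.5% of all genes. At an unadjusted p under 0.05, 4 were lower and 0 higher, compared to 56.5% of all genes in either direction. Bhlhe41, which encodes DEC2, a repressor at E-boxes, was 0.552 to 1.99 RPKM in hypothyroid WT and 0.084 to 0.184 RPKM in hyperthyroid WT mice (log2 fold change -2.7, SE 0.36, adjusted p = 3.8e-04), which rests on few reads. The call held in all 8 fits that left out 1 library.

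Tef, a PAR bZIP factor related to Dbp, fell from 60.8 ± 5.71 to 34.7 ± 8.63 RPKM (log2 fold change -0.84, SE 0.18, adjusted p = 0.0047). Its call was lost without hypothyroid replicate 2, 3 or 4 or hyperthyroid replicate 3 (adjusted p = 0.014, 0.013, 0.016 and 0.011). Hlf, of the same family, was 13.5 RPKM in both groups (0.00, SE 0.09, adjusted p = 0.98). Ciart, a repressor of BMAL1 and CLOCK, missed the threshold (-1.0, SE 0.31, adjusted p = 0.026), as did Rora (-0.31) and Bhlhe40 (0.55). Nfil3, a repressor at D-boxes, reached 30.6 RPKM in hyperthyroid replicate 2 and 9.85 to 12.2 RPKM in the others (0.53, SE 0.32, adjusted p = 0.19). Npas2, which can stand in for Clock, was too low to test for T3, at 0.015 to 0.038 RPKM in hypothyroid WT and 0.046 to 0.411 RPKM in hyperthyroid WT libraries.

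In L-NCOR1ΔID mice none of the 9 tested factors passed by limma, and 0 had an unadjusted p under 0.05 (20.5% of all genes). Bhlhe41 split the mutant libraries in the way Nr1d1 did, with 0.540 and 0.565 RPKM in replicates 1 and 2 and 4.02 and 2.94 RPKM in replicates 3 and 4. Between hyperthyroid WT and L-NCOR1ΔID mice, 2 of 10 tested factors were lower in hyperthyroid WT mice by limma and 0 higher. Of all genes 5.70% were lower and 15.5% higher. The 2 were Bhlhe41 (log2 difference -2.76, SE 0.60, adjusted p = 0.0071), which again rests on few reads, and Ciart (-1.45, SE 0.33, adjusted p = 0.0080). Of 8 fits that left out 1 library, the Bhlhe41 call held in those without L-NCOR1ΔID replicate 1 or 2 (otherwise 0.016 to 0.020) and the Ciart call in those without hyperthyroid replicate 2 or 4 (otherwise 0.011 to 0.023).

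**Figure D4:**
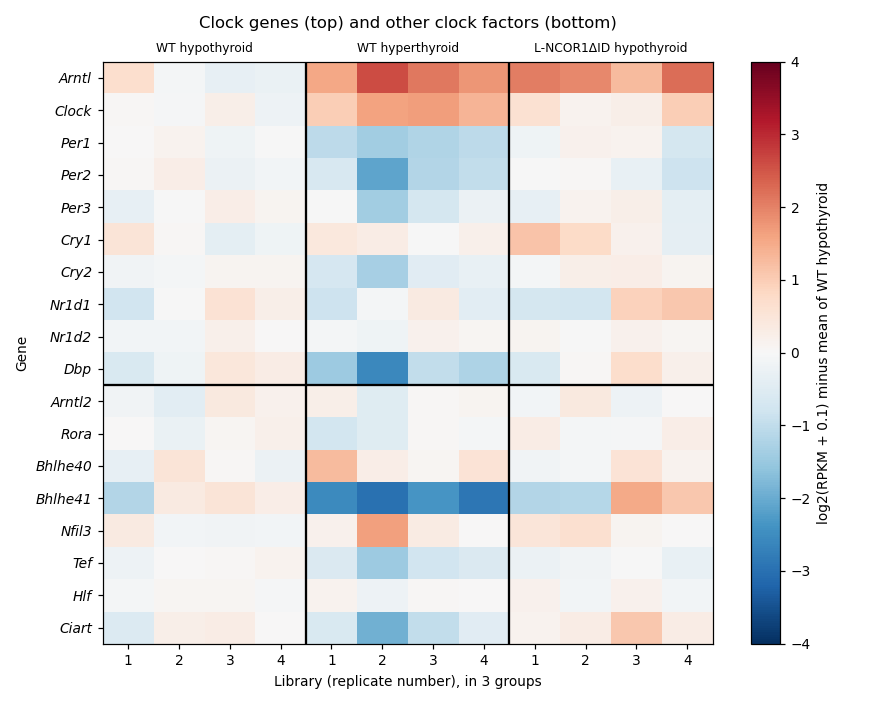
Difference of log2(RPKM + 0.1) from the mean of the hypothyroid WT libraries (colour scale from -4 to 4), for the 10 clock genes above the line and 8 further clock factors below it, in rows, and the 12 libraries in columns. Arntl is raised in all 8 libraries outside the hypothyroid WT group, while Bhlhe41 is low in the hyperthyroid WT libraries and Nr1d1 and Bhlhe41 divide the L-NCOR1ΔID libraries.

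Kinases, ligases and cofactors that act on clock proteins were 14 genes, of which 7 were higher and 0 lower in hyperthyroid WT mice (median log2 fold change 0.41, all genes 0.23). The shares over all genes tested were 24.5% higher and 7.71% lower. At equal gene medians 4 were higher and 1 lower. Fbxl21, an F-box protein that acts on CRY, had a log2 fold change of 0.84 (adjusted p = 6.8e-04), and Prkaa1, a catalytic subunit of AMPK, one of 0.80 (4.9e-04). The call of Timeless (0.67, adjusted p = 0.0058) was lost at equal gene medians (0.021) and in 6 of 8 fits that left out 1 library (up to 0.019, all but those without hypothyroid WT replicate 3 or hyperthyroid replicate 1). In L-NCOR1ΔID mice 0 of 14 passed by limma, and 1 was higher and 1 lower at an unadjusted p under 0.05 (20.5% of all genes). Between hyperthyroid WT and L-NCOR1ΔID mice, 4 of this list were higher in hyperthyroid WT mice and 0 lower by limma, compared to 15.5% and 5.7% of all genes. At an unadjusted p under 0.05, 8 were higher and 0 lower (48.4% of all genes in either direction). At equal gene medians 1 was higher and 0 lower.

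Of 14 liver genes with well known daily rhythms, 2 were higher and 3 lower in hyperthyroid WT mice (median -0.26). Among all genes tested the shares were 24.5% and 7.71%, together 32.2%. Elovl3, a fatty acid elongase, rose from 10.7 ± 8.91 to 91.9 ± 15.4 RPKM (log2 fold change 3.37, SE 0.43, adjusted p = 2.9e-04), and Ppard, a nuclear receptor, from 2.13 ± 0.317 to 12.9 ± 3.65 RPKM (2.51, SE 0.20, adjusted p = 2.8e-05). Gys2, the liver glycogen synthase, fell from 131 ± 27.7 to 42.4 ± 5.06 RPKM (-1.61, SE 0.15, adjusted p = 5.7e-05). Wee1, a cell cycle kinase switched on through E-boxes, fell from 7.61 ± 0.579 to 2.39 ± 1.25 RPKM (-1.81, SE 0.37, adjusted p = 0.0037). Its call was lost without hypothyroid replicate 2, 3 or 4, with an adjusted p of 0.010 to 0.012. In L-NCOR1ΔID mice 0 of 14 passed by limma, while 2 were higher and 2 lower at an unadjusted p under 0.05 (20.5% of all genes). Between hyperthyroid WT and L-NCOR1ΔID mice 3 of this list were higher and 1, Gys2 (-1.30, adjusted p = 0.0017), was lower. Of all genes 15.5% were higher and 5.7% lower in this comparison, together 21.2%. Ppard (1.91) was past the threshold in all 8 fits that left out 1 library. Elovl3 (3.12, adjusted p = 0.0049) was past it in those without L-NCOR1ΔID replicate 1, 2 or 4 (otherwise up to 0.017). Cyp7a1, the rate-limiting enzyme of bile acid synthesis (2.97, adjusted p = 0.0085), was past it in those without hyperthyroid replicate 2 or L-NCOR1ΔID replicate 2 (otherwise up to 0.025), and had an adjusted p of 0.014 at equal gene medians.

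Genes that follow systemic timing cues such as temperature and glucocorticoids were 9. With T3, 1 of them was higher, 2 were lower and 6 did not pass by limma (median log2 fold change -0.16). The shares over all genes tested were 24.5% higher and 7.71% lower. In hyperthyroid WT mice Hspa1b, a heat shock protein, fell from 16 ± 6.58 to 3.69 ± 1.06 RPKM (log2 fold change -2.03, SE 0.31, adjusted p = 7.3e-04), and Tsc22d3, a glucocorticoid target, from 95.6 ± 15.5 to 50.7 ± 14.6 RPKM (-0.94, adjusted p = 0.0035), a call lost without hypothyroid replicate 1 or 4 or hyperthyroid replicate 3 (0.012, 0.012 and 0.011). Sgk1, another glucocorticoid target, rose from 4.60 ± 0.976 to 12.5 ± 2.49 RPKM (1.43, SE 0.18, adjusted p = 3.2e-04). None of the 9 passed in L-NCOR1ΔID mice by limma, with 3 higher and 2 lower at an unadjusted p under 0.05 (20.5% of all genes). Against L-NCOR1ΔID mice, 2 were higher in hyperthyroid WT mice, Hsph1 (0.92, adjusted p = 0.0053) and Sgk1 (0.88, adjusted p = 0.0018), as were 15.5% of all genes. The Hsph1 call held without hyperthyroid replicate 1 or L-NCOR1ΔID replicate 1 or 2, and was lost without any other library (up to 0.018) and at equal gene medians (0.012).

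The deposited list of acetylated chromatin joins regions of H3K27 and H3K9 acetylation from hypothyroid and hyperthyroid WT mice, so that it gives positions and no level per group. Each of the 10 clock genes had a region over its start site, as did 87.3% of 11809 protein-coding genes tested for T3. These regions were 3710 bp (Per3) to 31871 bp (Per2) long, and 9 of 10 were longer than the median of 3951 bp over all such regions. The Per2 region lay at chr1:93331296-93363166 and covered the start and 5′ part of the gene. The Dbp region of 19968 bp, at chr7:52955290-52975257, held the whole gene (chr7:52960458-52965525). Arntl (chr7:120350979-120457636) had a region of 4465 bp over its start and Clock (chr5:76639992-76733817) one of 4985 bp.

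Within 100 kb of the start, Nr1d1 had 14 acetylated regions, Per2 12 and Per1 10, while Clock had 2 and Per3 3, and the median over coding genes was 7. Matches to CACGTG in the region over the start numbered 7 at Per1, 6 at Dbp and 5 at Nr1d1. CACGTG was present in these regions for 7 of 10 members, compared to 53.2% of all such regions. The regions at Arntl, Clock and Per3 held no CACGTG. The variant CACGTT was present in the regions of 8 of 10 members and in 56.1% of all such regions. Clock and Per3 had 1 such match each. These counts grow with length, since the region at Per1 spans 14025 bp and that at Clock 4985 bp. TAGGTCA was found in the regions of 6 of 10 members, with 8 matches at Per2, 2 each at Cry2 and Dbp and 1 each at Nr1d1, Nr1d2 and Arntl, where it is the site printed above, and in 36.4% of all such regions. The direct repeat of AGGTCA with 4 bases between had no exact match in any of the 10 regions and was found in 0.359% of all such regions.

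**Figure D5:**
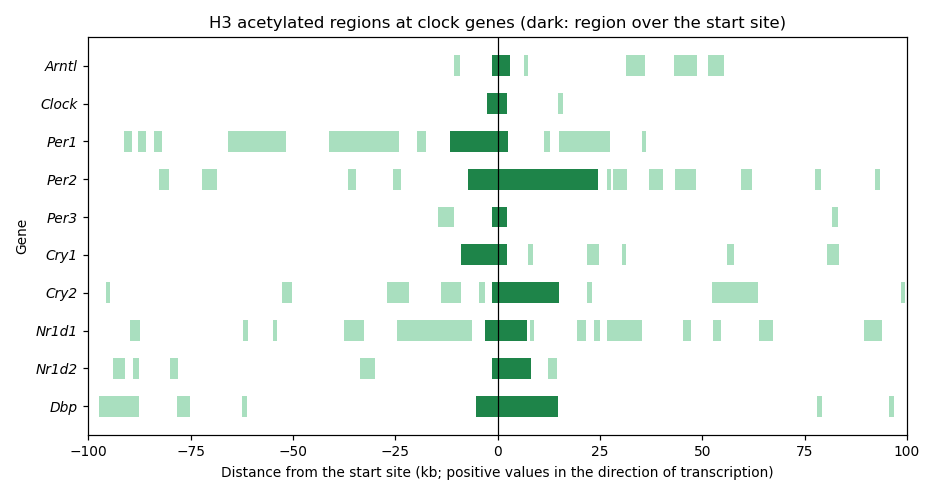
Acetylated regions (bars) within 100 kb of the start site of each clock gene, by distance in kb along the direction of transcription. Dark bars cover the start site, and that of Per2 is the longest at 31871 bp. Clock and Per3 have 2 and 3 regions in the window, Nr1d1 has 14.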

How the data were processed

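Poly(A) RNA from the liver of 12 male mice was sequenced by the authors, each library on 2 instruments per the labels, and no order of batches was available to test. Per the submitters' processing notes and the study's methods, the authors aligned reads to mm9 with STAR, quantified RefSeq transcripts with HOMER and deposited RPKM, scaled to uniquely aligned reads. DESeq2 was used by the authors on counts that were not used here. The authors also deposited the positions of merged acetylated regions, with no signal.

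Of 31370 rows, 1 had no gene name (at most 0.000785% of summed RPKM) and was left out, and the first row per gene was kept for 23813 genes. There were 0 unused columns of values. The depth of each library was estimated from the whole-read steps of RPKM in 642 to 776 genes with a single transcript length, where 72.5% to 79.0% of values came within 0.1 of a whole read. A value of 0.1 RPKM stands for 2.13 to 4.26 reads on a transcript of 1 kb.

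limma 3.58.1 (R 4.3.3) was fitted to log2(RPKM + 0.1), with a variance trend, for genes that reached 0.1 RPKM in 4 or more of the 8 libraries compared. Adjustment was by Benjamini-Hochberg over all genes tested, and the threshold was an adjusted p under 0.01. Fold changes are on the log2(RPKM + 0.1) scale, which understates those of low genes. Replicates are separate libraries per the labels, and p-values measure the spread between these libraries. Exact permutation tests were two-sided. On simulated data for the T3 comparison over 13808 genes, 66.4% of 107 changes of 1 and 93.3% of 90 changes of 2 on the log2 scale were called in the right direction. These shares were 70.1% and 89.9% for L-NCOR1ΔID and 55.1% and 85.2% for the direct comparison. Far more genes were called in the T3 data (32.2%) and in the direct comparison (21.2%) than were changed in the simulation. Its shares may therefore not hold for these comparisons.

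The members and the gene lists were chosen with earlier results of these data known. All members were named. Of the lists of other factors any gene was named, and of the other lists up to 4 with the largest called change per comparison. Of the listed genes, 2 enter the counts and are not reported here by name. Thra and Sphk2 were named for their overlap with members. The 5 genes most like Arntl and Dbp were those with the highest Pearson r. Positions and sequences came from GENCODE M1 and the NCBIM37 genome, the same build as mm9. Tables and figures used Python 3.11.15, numpy 2.4.6, pandas 2.3.3, scipy 1.17.1 and matplotlib 3.10.9. Alternatives were other pseudocounts, filters, samples in the fit, a replicate block, a fit with no trend in the variance, rescaling to equal gene medians (median of ratios to the geometric mean), another transcript per gene, a threshold of 0.05, and each library left out. ChIP-seq signal per sample was not analysed here.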

Additional observations from a re-analysis of the deposited data

Results flagged for a closer look

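No clock gene of the 10 members had a library set apart from the other 3 of its group by the gap test for 4 samples. Among the other clock factors, 5 of the values tested did, in 63 groups of 4 libraries over both sets of genes, where chance gives about 1 in 20. Nfil3 was 12.6 RPKM in hypothyroid WT replicate 1, with the others at 8.89 to 9.08 RPKM, and 30.6 RPKM in hyperthyroid WT replicate 2, the library with the highest Arntl and lowest Dbp. Ciart was 30.7 RPKM in L-NCOR1ΔID replicate 3, above 15.8 to 17.8 RPKM in the other mutant libraries. Npas2 was 0.038 RPKM in hypothyroid WT replicate 4, and Rorb was 0.003 RPKM in L-NCOR1ΔID replicate 4 and listed at 0 in the other mutant libraries, both below the filter on low values.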

How the results depend on the processing

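For T3, 2 members higher was found in every alternative. The number lower, 3 as reported, was 1 to 4 when 1 library was left out, and 1 without hypothyroid WT replicate 2 or 4. For L-NCOR1ΔID the 1 higher member became 0 without a filter on low values and without the variance trend, and was 0 to 1 when 1 library was left out. Between hyperthyroid WT and L-NCOR1ΔID mice, the 1 higher member became 0 without a filter, without the variance trend and at equal gene medians, and was 0 to 1 with 1 library left out. The 2 lower members became 1 without a filter and without the variance trend and 4 at an adjusted p under 0.05, and were 0 to 3 with 1 library left out. The cause was not tested.

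Over all genes tested, same-numbered replicates did not deviate together (r from -0.15 to 0.18), so that the numbers were not taken to pair the mice. With the replicate number as a block, T3 gave 2 higher and 2 lower members (Per2 lost, adjusted p = 0.017). With it L-NCOR1ΔID gave 0 (Arntl 1.87, adjusted p = 0.018), and the direct comparison gave 0 higher and 1 lower (Dbp). For T3, the block lowered the SE of Nr1d1 (0.31 to 0.12), Dbp (0.35 to 0.24) and Cry1 (0.19 to 0.11). It also lowered those of Cry2 (0.20 to 0.15), Nr1d2 (0.10 to 0.06) and Clock (0.16 to 0.14). Those of Arntl, Per1 and Per2 rose to 0.31, 0.11 and 0.29, and that of Per3 stayed at 0.27. Whether same-numbered libraries share a source of variation in these genes was not tested.

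Values that changed sign were all of uncalled genes. At equal gene medians Cry1 and Nr1d2 became -0.01 and -0.24 for T3, and Arntl -0.06 in the direct comparison. With 1 library left out, Nr1d2 for T3 was -0.06 to 0.07. For L-NCOR1ΔID, Per1 was -0.25 to 0.04, Per3 -0.20 to 0.01, Nr1d1 -0.17 to 0.43 and Dbp -0.13 to 0.32. In the direct comparison, Arntl was -0.07 to 0.29 and Cry1 -0.46 to 0.03.

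Over all genes, T3 gave 3413 higher and 1075 lower, and 1706 and 1952 at equal gene medians; the direct comparison gave 2176 and 799, and 1051 and 1284. For L-NCOR1ΔID, 100 higher and 75 lower became 20 and 25 with the block and 36 to 110 and 28 to 77 when 1 library was left out (36 higher without L-NCOR1ΔID replicate 3, 28 lower without hypothyroid WT replicate 2 or 3), the number higher was 63 without the variance trend, and the number lower was 118 with all 12 libraries in 1 fit. With the block the direct comparison gave 1152 higher and 490 lower. At an adjusted p under 0.05 the counts were 5244 and 1636 for T3, 344 and 257 for L-NCOR1ΔID, and 3995 and 1412 in the direct comparison. Npas2 was too low for a test of T3 at this depth.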
